A study of Sus scrofa with 4 samples.

Results

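The genes described here are the molecular chaperones and protein-folding enzymes of the porcine (Sus scrofa) blastocyst: the heat shock proteins of the HSP70, HSP90, HSP60, HSP10 and small families, the J-domain proteins (DNAJ), the subunits of the ring-shaped cytosolic chaperonin TRiC, and the protein disulfide isomerases (PDIA). They were found by gene symbol in the platform's probe-to-gene table. The search itself used no measured value, although it was chosen with earlier results of these data known. The search gave 118 probes for 72 genes, among 43794 probes of which 18121 carried a symbol for 11909 genes. By the known place of their products, 45 genes were assigned to the cytosol (with the nucleus), 17 to the endoplasmic reticulum (ER) and 9 to the mitochondria, and DNAJC22 was left unassigned. The symbol search also took in HSPBAP1 and HSPBP1, which encode partners of heat shock proteins and not chaperones themselves.

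Chaperones bind unfolded stretches of protein and release them in cycles of ATP use, and J-domain proteins bring clients to HSP70 and speed its ATP hydrolysis. The ER has its own set for secreted and membrane proteins, with disulfide isomerases that make and rearrange disulfide bonds, and its genes are switched on together when unfolded protein builds up there. Mitochondria use HSP70 to pull proteins in and the HSP60 and HSP10 pair to fold them. In mouse embryos, genes of the HSP70 family are among the first to be transcribed when the embryonic genome becomes active.

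Transcripts were measured on 4 arrays with 2 colours, and each array carried RNA from 1 coculture pool and 1 control pool of blastocysts. Coculture blastocysts came from cumulus oocyte complexes, the oocyte with its surrounding cumulus cells, that had matured in the presence of porcine luteal cells, the progesterone-making cells of the corpus luteum; control complexes matured without them. The series description gives 4 pools of 10 blastocysts from days 7 and 8. It gives no day for a single pool, no number per condition and no link of pools to donors or fertilisation runs. Whether the 4 arrays carried different pools, or the same pools with dyes exchanged, is therefore not known. Each p-value rests on how far arrays with the same dyes differ, drawn towards a spread shared by all tested probes. The shared part has the greater weight (6.04 prior against 2 residual degrees of freedom). A gap between the 2 dye orientations goes into a separate dye term and not into this spread. The part of the pools in the differences between arrays was not tested. Nor can those differences be read as differences between donors or fertilisation runs. Coculture RNA carried Cy5 on replicates 1 and 2 and Cy3 on replicates 3 and 4. A pool mixes all cells of its blastocysts, and fewer cells of a type and less RNA per cell cannot be told apart.

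Probe signals were low against the platform's own blanks. Array medians over probes ran from 630 to 840 (Cy3) and 585 to 798 (Cy5), and over the 153 negative-control spots from 596 to 787 (Cy3) and 591 to 817 (Cy5). A probe was called above the detection limit where it exceeded the mean plus 2 SD of those spots. The Cy3 channel had the greater share of probes above the limit on each array, 29.8% to 34.8% against 23.5% to 29.3% in Cy5, whichever condition it held, and the part of this difference in the ratios was not tested. Among the marker genes, 6 of 8 trophectoderm genes stood above the limit in all 8 channels, and the keratins KRT8 and KRT18 had log2 ratios of coculture over control of 0.07 and 0.08. For granulosa, cumulus and luteal cells 11 marker symbols were listed, some of them second names of a listed gene. Of these, 7 had a probe, 4 were tested and 0 stood above the limit in all 8 channels.

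Chaperone probes were more often measurable than the array as a whole. Of the 118, 77 (65.3%) met the requirements for testing, against 35.7% of all probes and 40.3% of the probes with a symbol. These 77 covered 51 genes: 27 of 45 in the cytosol, 14 of 17 in the ER, 9 of 9 in the mitochondria, and DNAJC22. Of the 21 genes not tested, 16 were above the limit in no channel, and 14 of these belonged to the cytosolic group. They included the small heat shock genes HSPB2, HSPB6, HSPB8 and HSPB9, known mainly from muscle and testis, together with HSPA4L, HSPA12A, HSPA12B, DNAJB8 and DNAJB13. In the ER, HSPA13, a microsomal HSP70 relative, and PDIA2, the pancreatic disulfide isomerase, were above the limit in no channel.

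No chaperone probe passed the test once p-values were adjusted over all probes. In the limma fit over all 15631 tested probes, 0 of 77 chaperone probes had an adjusted p under 0.05, and so had 0% of all probes. The lowest adjusted p of a chaperone probe was 0.629. At an unadjusted p under 0.05 there were 9 chaperone probes (11.7%) against 7.84% of all probes. Without replicate 2 there were 4 chaperone probes, and the count over all probes also fell. Of the 9, 5 were lower in coculture (6.49% of the chaperone probes, against 3.7% of all probes) and 4 higher (5.19%, against 4.15%). The 5 were HSPB1, PDIA3, PDIA4, DNAJC4 and the brightest of 8 PDIA6 probes. The 4 were DNAJB2 and secondary probes of DNAJC17, DNAJC19 and CCT3. The same sign on all 4 arrays was found for 13 of 77 chaperone probes (16.9%), against 13.2% of all probes. In the following, each gene with several probes is given by the probe of highest mean intensity unless another is named, and ratios are log2 of coculture over control on replicates 1, 2, 3 and 4 in that order. Cy5 arrays and Cy3 arrays are those whose coculture RNA carried that dye.

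The median ratio of the 14 ER genes was -0.12, with 12 of 14 below 0. That of the 27 cytosolic genes was 0.00061, with 13 below 0, and that of the 9 mitochondrial genes was -0.025, with 5 below 0. Over all 5353 genes tested the median was -0.0059, with 51.3% below 0. Array by array, the ER median stood at -0.065, -0.16, -0.068 and -0.25, below 0 on each. The cytosolic median stood at 0.011, 0.12, -0.031 and -0.12, and the mitochondrial at 0.23, -0.10, -0.088 and -0.0046. The cytosolic median was above 0 on both arrays with coculture on Cy5 and below 0 on both with coculture on Cy3. Of the 7 tested trophectoderm markers, 5 were below 0 and KRT8 and KRT18 above, with a median of -0.19 and a range of -0.48 to 0.08. Further probes of CDX2, TEAD4 and TFAP2C stood above 0, at 0.15, 0.01 and 0.03, while the remaining probes of CDX2 and TEAD4 were below 0. POU5F1, a pluripotency factor, stood at -0.38 (-0.22 by a second probe) and GATA6, an early endoderm factor, at 0.34, and the part of such markers in the chaperone ratios was not tested. These are descriptions of genes that share pools, and no test of a list was made. The 95% interval of a single chaperone gene reached a median of 0.349 to either side, against 0.362 over all genes.

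The 3 lowest ratios of the ER belonged to disulfide isomerases. All 4 tested genes with a PDIA symbol were below 0, with a median of -0.44, and 3 of them were below 0 on each array. None of the 4 passed the test. Relatives under other symbols were outside this count. Of the listed ER partners, ERP44 stood at 0.03 (0.15 by a second probe), ERP29 at 0.02 and TXNDC5 at -0.10. PDIA3, the isomerase that works with calnexin and calreticulin on glycoproteins, gave normalised intensities of 3589, 3226, 1719 and 1416 in coculture and 3904, 4143, 2499 and 2995 in the controls of the same arrays. Its coculture channel was the dimmer on each array, although the ranges of the 2 conditions overlapped across arrays. The ratios were -0.12, -0.36, -0.54 and -1.08, furthest from 0 on replicate 4 and nearest on replicate 1. The fitted value was -0.53 (95% interval -0.89 to -0.16, limma adjusted p = 0.629).

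PDIA4, a larger isomerase of the ER lumen, had intensities of 757, 1425, 2103 and 2571 in coculture and 1524, 1725, 2197 and 3279 in control. Coculture was again the dimmer channel on all 4 arrays, with overlapping ranges. Replicate 1 stood furthest from 0: the ratios were -1.01, -0.28, -0.06 and -0.35. The fitted value was -0.42 (95% interval -0.82 to -0.03, limma adjusted p = 0.632), and -0.24 without replicate 1. PDIA5, another member of the family, stood at -0.07, 0.04, -0.07 and -0.23, with a fitted value of -0.08. It lay near 0 on 3 arrays.

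PDIA6, an isomerase found in complexes with the ER HSP70, was represented by 8 tested probes. Its brightest probe had intensities of 6374, 4308, 6330 and 3817 in coculture and 7487, 8144, 8914 and 4359 in control. It was dimmer in coculture on each array, with overlapping ranges, and the widest gap was on replicate 2. The ratios were -0.23, -0.92, -0.49 and -0.19, with a fitted value of -0.46 (95% interval -0.85 to -0.07, limma adjusted p = 0.629), and -0.29 without replicate 2. The other 7 probes did not share this. Their fitted values ran from -0.26 to 0.09, the 95% intervals of all 7 held 0, and 0 of 7 had 1 sign on all 4 arrays. The mean over the 8 probes was -0.13, with 6 of 8 below 0.

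**Figure D1:**
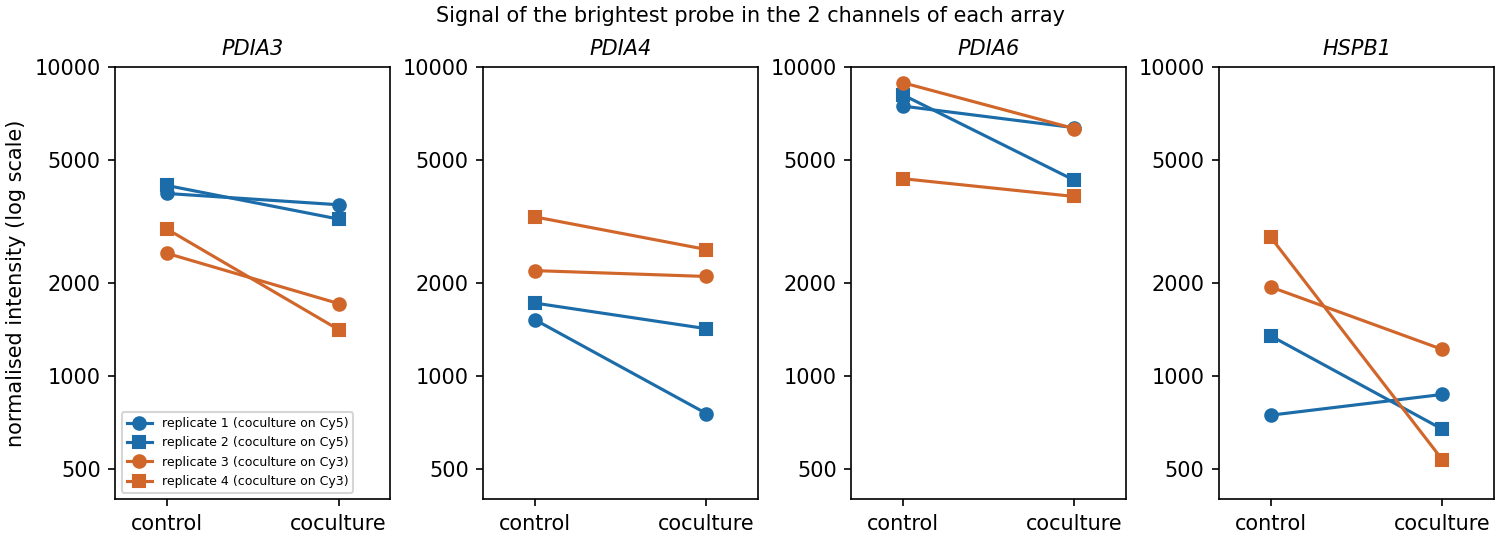
Normalised intensity (log scale) of the brightest probe of PDIA3, PDIA4, PDIA6 and HSPB1 in the control and coculture channels, with 1 line per array. Blue marks the 2 arrays with coculture on Cy5 and orange those with coculture on Cy3. All lines slope down from control to coculture except that of HSPB1 on replicate 1.

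The fitted ratios of the major ER chaperones lay closer to 0 than those of PDIA3, PDIA4 and PDIA6, a difference that was not tested. HSPA5, the ER HSP70 also called BiP, whose transcript is a standard measure of ER stress, had intensities of 6085, 10718, 10458 and 9032 in coculture and 6703, 12389, 10089 and 9425 in control. The 2 conditions differed little on any array, and replicate 3 ran the other way from the rest. Its ratios were -0.14, -0.21, 0.05 and -0.06, with a fitted value of -0.09 (95% interval -0.41 to 0.24), and a second probe gave -0.11. HSP90B1, the ER HSP90 also called GRP94, stood at 0.25, -0.06, -0.27 and -0.55. Replicates 1 and 4 were at opposite ends, and the fitted value was -0.16 by this probe and 0.07 by the other.

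The J-domain proteins of the ER were mixed, with 6 of 8 below 0. DNAJB9, which holds BiP on the stress sensor IRE1, stood at -0.49, -0.20, -0.11 and -0.26. It was below 0 on all 4 arrays, with a fitted value of -0.26 (95% interval -0.60 to 0.07, limma adjusted p = 0.691), or -0.12 with mean pixel intensities. DNAJB11, which delivers unfolded clients to BiP, stood at 0.02, 0.31, -0.14 and -0.21, above 0 in one dye orientation and below in the other, with a fitted value of -0.0049. DNAJC10, a J-domain protein that reduces disulfides before misfolded proteins are removed, stood at 0.23, -0.54, 0.11 and -0.43, with a fitted value of -0.16. Its sign alternated within both orientations. DNAJB14 and DNAJB12, which sit in the ER membrane with the J domain in the cytosol, were the 2 ER genes above 0, at 0.21 and 0.10. DNAJC18 and DNAJC1 had fitted values of -0.18 and -0.05, and each was above the limit in only 1 or 2 channels of a condition.

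**Figure D2:**
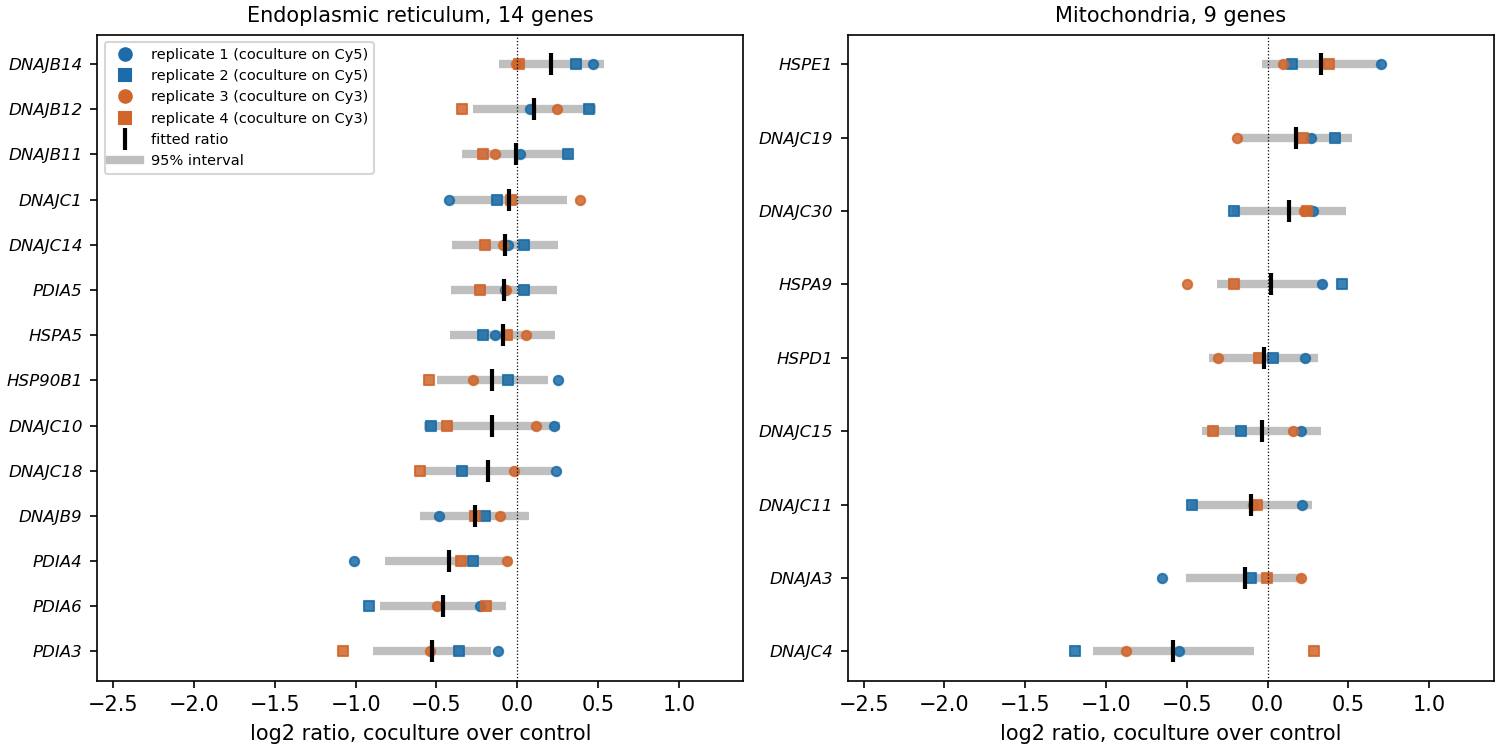
Log2 ratios of coculture over control for the 14 ER genes (left) and the 9 mitochondrial genes (right), 1 probe per gene, sorted by fitted ratio. Points are the 4 arrays, black ticks the fitted ratio and grey bars its 95% interval. The bars of PDIA3, PDIA6, PDIA4 and DNAJC4 lie wholly below 0, while those of the other genes hold 0.

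Folding partners of the ER outside the symbol search were described by a list of 18 symbols, which named ERO1A also as ERO1L. A probe was present for 15, and 11 were tested. Of these, 7 were below 0, the median was -0.049, and 0 passed the test. SDF2L1, an ER-resident partner of BiP and J-domain proteins, stood at -0.54, -1.48, -0.66 and -0.49. It was below 0 on all 4 arrays and furthest on replicate 2, with a fitted value of -0.79 (95% interval -1.21 to -0.37, limma adjusted p = 0.629). CANX, the membrane lectin calnexin that passes glycoproteins to PDIA3, stood at -0.07, -0.09, -0.43 and -1.01. As for PDIA3, replicate 4 was furthest from 0, and the fitted value was -0.40 (95% interval -0.76 to -0.04, limma adjusted p = 0.630), or -0.10 with mean pixel intensities and -0.25 without replicate 4. CALR, the soluble lectin calreticulin, had a fitted value of -0.05 (95% interval -0.37 to 0.27), with both Cy5 arrays below 0 and both Cy3 arrays above, and its other probes gave -0.13 and 0.29.

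In the cytosol, HSPB1 had the lowest ratio of all chaperone genes and also the widest spread between arrays. HSPB1 encodes the small heat shock protein HSP27, which holds unfolding proteins and binds actin filaments. Its intensities were 873, 674, 1221 and 537 in coculture and 748, 1351, 1945 and 2818 in control. Coculture was dimmer on replicates 2, 3 and 4 and brighter on replicate 1, and the ranges overlapped. The ratios were 0.22, -1.003, -0.67 and -2.39. The fitted value was -0.96 (95% interval -1.65 to -0.27, limma adjusted p = 0.629), and -0.53 without replicate 4. The other small heat shock gene tested, HSPB3, was above the limit on 2 coculture and 3 control arrays and had a fitted value of -0.04 (95% interval -0.61 to 0.54).

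The tested cytosolic HSP70 and HSP110 genes gave ratios on both sides of 0. HSPA1A, HSPA1B and HSPA1L, also sought by role, had no probe under those symbols, so nothing is given for them. HSPA8, the constitutive HSP70, had intensities of 56820, 56948, 56759 and 44237 in coculture and 56391, 43271, 50230 and 48004 in control. The conditions overlapped, and only replicate 4 was brighter in control. The ratios were 0.01, 0.40, 0.18 and -0.12, with a fitted value of 0.12 (95% interval -0.24 to 0.47). HSPA2, an HSP70 best known from the male germ line, stood at -0.12, -0.87, -0.06 and -0.08. Replicate 2 stood apart from the others, which lay close together. Its fitted value of -0.28 (95% interval -0.67 to 0.10) became -0.097 without that array. HSPA14, an HSP70 of the ribosome, stood at 0.03, -0.23, 0.83 and 0.11 with a fitted value of 0.19, which became 0.0048 without replicate 3. HSPA4, an exchange factor of the HSP110 family, had a fitted value of -0.01 by its brightest probe. Its other tested probe stood at -0.02, -0.05, -0.41 and -0.60, below 0 on all 4 arrays. The fitted value of that probe was -0.27 (95% interval -0.60 to 0.06). HSPH1, another exchange factor of that family, stood at 0.67, 0.23, -0.43 and -0.28 and had a fitted value of 0.05. Its arrays split by dye orientation, both Cy5 arrays above 0 and both Cy3 arrays below.

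Of the cytosolic HSP90 genes, HSP90AB1, the constitutive form that matures kinases and steroid receptors, was the steadier between arrays. Its intensities were 20404, 23567, 13698 and 14105 in coculture and 26118, 26995, 17591 and 17071 in control. Coculture was the dimmer channel on each array by a similar margin, with ranges that overlapped across arrays. The ratios were -0.36, -0.20, -0.36 and -0.28, with a fitted value of -0.30 (95% interval -0.62 to 0.03, limma adjusted p = 0.657). With mean pixel intensities it was -0.12. HSP90AA1, the heat-inducible form, stood at -0.10, 0.17, 0.06 and -0.21 with a fitted value of -0.02, and a second probe gave -0.09. The listed partners of cytosolic HSP70 and HSP90 held 16 tested genes among 19 with a probe, 10 of them below 0 with a median of -0.069 and 0 past the test. SGTA, of this list, stood at -0.37, -0.13, -0.20 and -0.43 with a fitted value of -0.28 (95% interval -0.62 to 0.06). A second SGTA probe gave -0.29. CDC37, which hands kinases to HSP90, stood at -0.25, -0.06, -0.29 and -0.30 with a fitted value of -0.23 (95% interval -0.55 to 0.10). FKBP4, an immunophilin of the steroid receptor complex, was at 0.60, 0.10, 0.33 and 0.15 by its brightest probe, with a fitted value of 0.29 (95% interval -0.06 to 0.65). Its other tested probes disagreed, at -0.23, 0.11 and 0.12.

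The TRiC chaperonin, a double ring that folds actin and tubulin, had tested probes for 5 of its subunits, with a median of 0.027. CCT2 was close to 0 on every array, at -0.02, -0.01, 0.01 and -0.16. TCP1 stood at -0.03, 0.21, 0.47 and 0.39 with a fitted value of 0.26 (95% interval -0.07 to 0.59) by its brightest probe and -0.03 by the other. The 2 probes of CCT3 went in opposite directions. The brightest gave 0.14, -0.33, -0.19 and -0.78 with a fitted value of -0.29, and the other gave 0.50, 0.53, 0.66 and -0.12 with a fitted value of 0.39 (95% interval 0.00064 to 0.79, limma adjusted p = 0.635), or 0.19 with mean pixel intensities. Replicate 4 was the lowest by both probes. CCT4 and CCT7 had fitted values of 0.03 and 0.07, and the second CCT7 probe gave -0.10. PFDN6, a subunit of prefoldin, which passes new actin and tubulin chains to TRiC, stood at -0.34, -0.58, -0.31 and -0.28, below 0 on all arrays, with a fitted value of -0.38 (95% interval -0.71 to -0.05, limma adjusted p = 0.630), or -0.24 with mean pixel intensities.

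Of the 12 tested cytosolic J-domain genes, 8 were above 0, against 2609 of 5353 genes tested. DNAJB2 and DNAJB4, among the 8, were tested through their coculture channel alone. DNAJB2, a J-domain protein that hands ubiquitin-marked clients to the proteasome, had intensities of 433, 377, 493 and 541 in coculture and 262, 343, 339 and 376 in control. It was brighter in coculture on each array, and the ranges did not overlap, although the lowest coculture value (replicate 2) was next to the highest control value (replicate 4). It was above the detection limit on 2 coculture arrays and 0 control arrays, and it met the requirements for testing through its coculture channel. The ratios were 0.72, 0.14, 0.54 and 0.53, set against a control signal not well above background. The bound computed for such a probe was 1.34-fold, higher in coculture (limma adjusted p = 0.629), with 2 of the 4 coculture values in it below the limit themselves. It is no floor under other processing: the fitted log2 ratio of 0.48 became 0.15 with mean pixel intensities and 0.25 when no background was corrected. DNAJB4, a close relative of the general HSP70 partner DNAJB1, gave 0.16, 0.41, 0.19 and 0.17. No array went below 0. The probe was above the limit on 4 coculture arrays and 1 control array, and so was tested through its coculture channel. Its fitted value was 0.23 (95% interval -0.10 to 0.56). DNAJB1 itself stood at -0.31, 0.12, -0.33 and 0.18, with a sign that changed within both orientations.

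DNAJC17, a nuclear J-domain protein linked to splicing, had 3 tested probes, all above 0. One of them stood at 0.56, 0.68, 0.56 and 0.44. These 4 values lay close together, and the fitted value was 0.56 (95% interval 0.23 to 0.89, limma adjusted p = 0.629), or 0.27 with mean pixel intensities. The brightest probe gave 0.19 and the remaining one 0.11. DNAJC9, a chaperone of histones H3 and H4, stood at 1.22, 0.12, -0.56 and 0.34 with a fitted value of 0.28 (95% interval -0.24 to 0.80). Its value on replicate 1 was the highest among the brightest probes of the chaperone genes, and without that array the fitted value was 0.007. DNAJC2, which recruits HSPA14 to the ribosome, stood at 0.05, 0.24, 0.07 and 0.09, above 0 on all arrays, with a fitted value of 0.11. The 5 tested probes of DNAJA1, a general partner of HSPA8, ranged from -0.22 to 0.37.

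**Figure D3:**
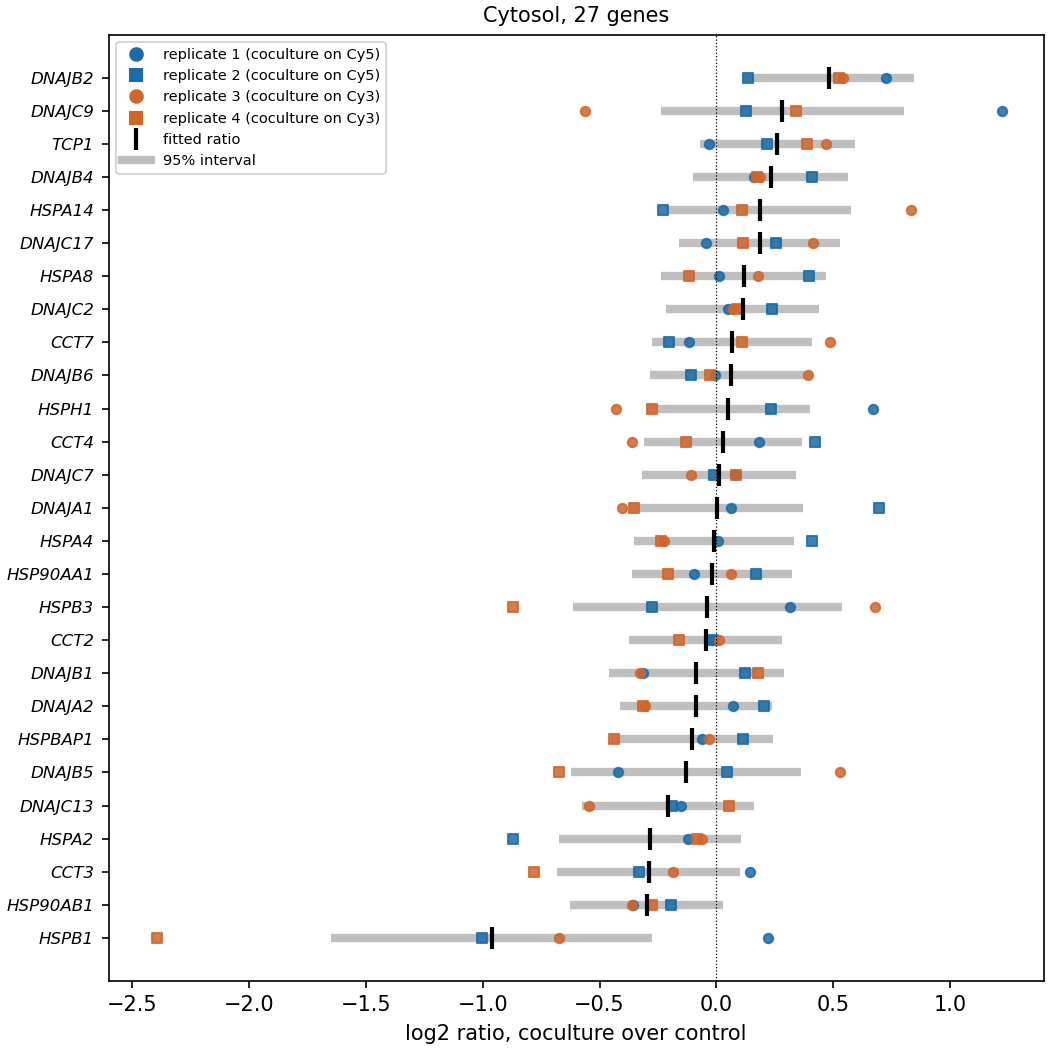
Log2 ratios of coculture over control for the 27 cytosolic genes, 1 probe per gene, sorted by fitted ratio. Points are the 4 arrays, black ticks the fitted ratio and grey bars its 95% interval. HSPB1 at the bottom spans -2.39 to 0.22, and the bars of HSPB1 and DNAJB2 are the ones that do not hold 0.

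In the mitochondria, the chaperonin HSPD1 (HSP60) and its lid HSPE1 (HSP10) are neighbouring genes in the RefSeq annotation. HSPD1 had intensities of 25262, 15883, 12561 and 12537 in coculture and 21553, 15549, 15523 and 13013 in control. Coculture was brighter on both Cy5 arrays and dimmer on both Cy3 arrays. The ratios were 0.23, 0.03, -0.31 and -0.05, with fitted values of -0.06 to -0.02 over its 3 probes. HSPE1 had intensities of 16384, 13831, 7170 and 5094 in coculture and 10087, 12439, 6702 and 3915 in control. It was brighter in coculture on each array, with overlapping ranges. The ratios were 0.70, 0.15, 0.10 and 0.38, with a fitted value of 0.33 (95% interval -0.04 to 0.70, limma adjusted p = 0.657), or 0.077 with mean pixel intensities and 0.20 without replicate 1. The intervals of the pair overlapped, and the difference between them was not tested.

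HSPA9, the HSP70 of the mitochondrial matrix that drives protein import, stood at 0.34, 0.46, -0.50 and -0.21. The 2 dye orientations had opposite signs, and the fitted value was 0.02 (95% interval -0.31 to 0.36). DNAJC19, a J-domain protein of the import motor, stood at 0.27, 0.42, -0.19 and 0.22 by its brightest probe, with a fitted value of 0.18. A second probe was above 0 on all arrays at 0.33, 0.30, 0.36 and 0.43, with a fitted value of 0.36 (95% interval 0.03 to 0.68, limma adjusted p = 0.630), or 0.094 with mean pixel intensities. DNAJC15, its paralogue, stood at -0.04 by one probe and 0.36 by another, and DNAJA3, the HSPA9 partner of the matrix, at -0.14 and 0.01.

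DNAJC4 had the lowest ratio of the mitochondrial group. Its intensities were 520, 414, 566 and 952 in coculture and 761, 946, 1039 and 782 in control. Coculture was dimmer on replicates 1, 2 and 3 and brighter on replicate 4, with overlapping ranges. The ratios were -0.55, -1.19, -0.88 and 0.28. The fitted value was -0.58 (95% interval -1.08 to -0.08, limma adjusted p = 0.630), and -0.29 without replicate 3 or -0.39 without background correction. DNAJC11, a protein of the mitochondrial contact sites, and DNAJC30 had fitted values of -0.10 and 0.14. Among the 6 tested partners in mitochondria, 3 were below 0, with a median of -0.11, and 0 passed the test. TRAP1, the mitochondrial HSP90, stood at 0.26, -1.65, -0.07 and -0.77, and its fitted value of -0.56 became -0.083 without replicate 2. A second TRAP1 probe gave -0.42. CLPP, of the same list, stood at -0.23, -0.49, -0.08 and -0.17 with a fitted value of -0.24 (95% interval -0.57 to 0.09). Its second probe gave -0.01.

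The regulators of these genes were tested for 6 of 8 members, 3 on either side of 0, with a median of 0.054 and 0 past the test. HSF2, a heat shock factor, stood at 0.29, 0.62, 0.32 and 0.07, with a fitted value of 0.32 (95% interval -0.02 to 0.67), or 0.19 without background correction. It was above the limit on 3 coculture arrays and 1 control array, and so was tested through its coculture channel. ATF4, a transcription factor of the ER and amino acid stress responses, stood at 0.35, 0.14, 0.29 and 0.27 by its brightest probe, with a fitted value of 0.26 (95% interval -0.07 to 0.59). Of its 3 other tested probes, 1 gave 0.25 and the others -0.10 and -0.13. XBP1, the transcription factor activated by IRE1, stood at -0.03, and EIF2AK3, the ER stress kinase PERK, at -0.29 (95% interval -0.63 to 0.05), or -0.03 with mean pixel intensities. EIF2AK3 was below 0 on all arrays but above the limit on only 1 coculture and 2 control arrays.

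Agreement between probes of one gene was limited. Of the 15 chaperone genes with several tested probes, 6 had all their probes on 1 side of 0 and 9 did not. HSPD1 was the tightest case among those with 3 or more probes, with a range of 0.039 between probes, and CCT3 the widest of all, with 0.68. The range for PDIA6 was 0.55 and for DNAJA1 0.59. Probe sequences were not used here, and whether probes of HSPA8, HSP90AA1, HSP90AB1 and other members with near-identical copies also bind those copies was not tested.

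**Figure D4:**
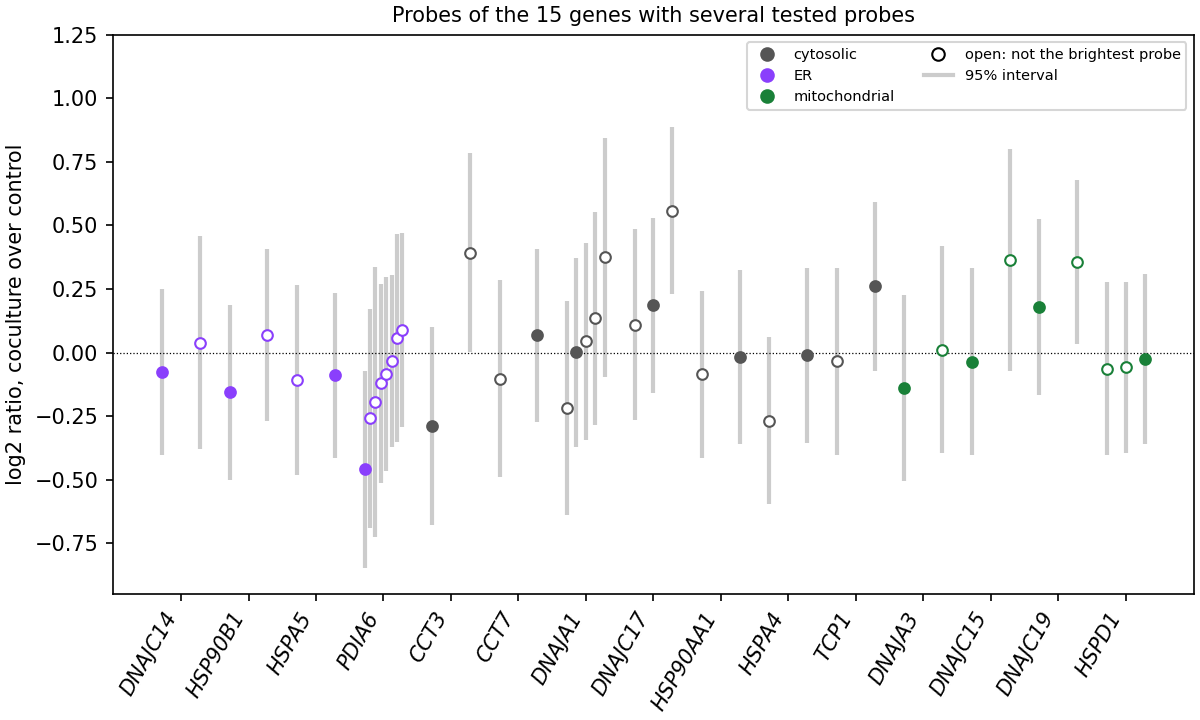
Fitted log2 ratios of coculture over control for every tested probe of the 15 chaperone genes with several, with 95% intervals as grey bars. Filled points are the brightest probe of a gene, open points its other probes, and colours give the compartment. The filled PDIA6 point at -0.46 lies below its 7 other probes, and the 2 points of CCT3 lie on opposite sides of 0.

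The dye exchange gives a view of each gene in the 2 orientations. The mean ratio had opposite signs in the orientations for 21 of 51 chaperone genes (41.2%), against 53.1% of all genes tested. The count was 4 of 14 in the ER, 13 of 27 in the cytosol and 4 of 9 in the mitochondria. By their brightest probes, all 4 tested PDIA genes had the same sign in both orientations. Some other PDIA6 probes did not, with Cy5 and Cy3 means of 0.41 and -0.24, 0.36 and -0.24, and -0.13 and 0.06. The remaining PDIA6 probes were below 0 in both. Between arrays of opposite dye orientation, the correlation across the 77 chaperone probes was 0.0705 to 0.227, where that across all tested probes was -0.191 to -0.0275. Between arrays of the same orientation it was 0.198 and 0.145 for the chaperone probes and 0.204 and 0.167 for all. Without HSPB1, the chaperone value fell to 0.0418 for replicates 3 and 4, 0.0606 for replicates 2 and 4 and 0.14 for replicates 2 and 3. It rose to 0.224 for replicates 1 and 2, 0.0815 for replicates 1 and 3 and 0.233 for replicates 1 and 4. These correlations run across probes, which share arrays and pools and are not independent, and are given as a description.

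**Figure D5:**
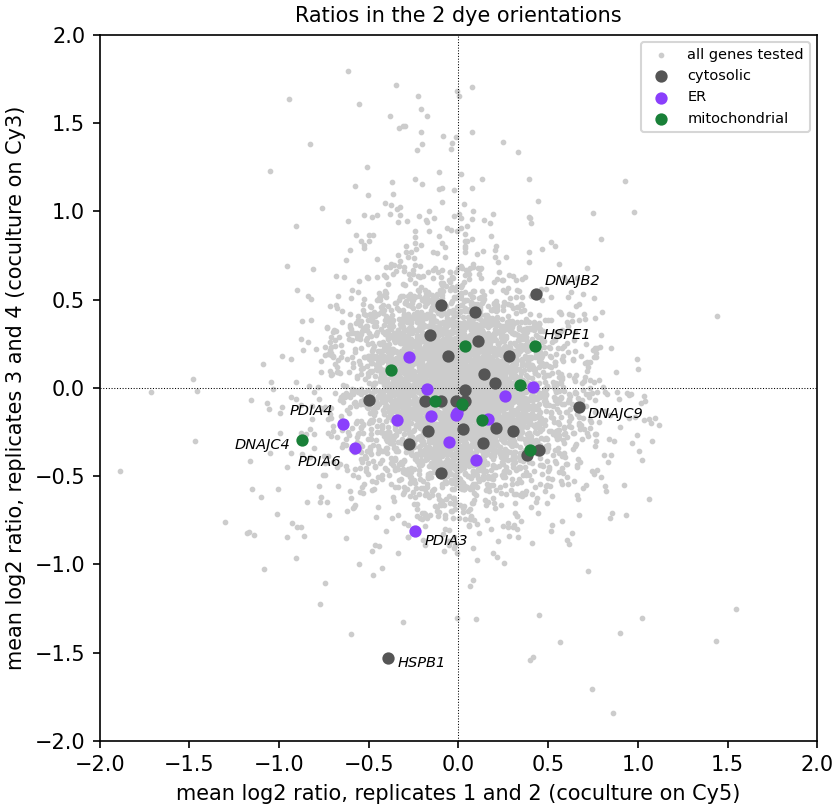
Mean log2 ratio of coculture over control on replicates 1 and 2 (horizontal axis) against replicates 3 and 4 (vertical axis), 1 probe per gene. Grey points are all tested genes, of which 5 lie outside the axes of -2 to 2, and coloured points are the chaperone genes by compartment. HSPB1, PDIA3, PDIA4, PDIA6 and DNAJC4 lie in the lower left, below 0 in both orientations, and DNAJB2 and HSPE1 in the upper right.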

How the data were processed

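Blastocyst RNA was extracted with a kit for DNA and RNA, amplified and chemically labelled with Cy3 or Cy5, per the labels' protocols. The deposited scanner tables give raw median and mean pixel intensity and local background per spot, per the file headers. The authors' deposited value table gives log2 values. Set against the scanner values (correlations of 0.941 to 0.961), it held log2 ratios of Cy5 over Cy3, not turned for the dye exchange, with column medians of -0.0133, -0.013, -0.000395 and -0.0167. Its exact centring is unknown, and it served as an alternative. Limma is named in the submitters' processing notes, with no version.

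Median intensities were background-corrected (normexp, offset 50) and loess-normalised within arrays in limma 3.58.1 (R 4.3.3), with control spots at weight 0 and 74 to 150 left-out spots per array without a value. No tested chaperone spot was saturated. Log2 ratios were fitted with lmFit and eBayes (2 residual and 6.04 prior degrees of freedom) with a dye intercept and a coculture term, and Benjamini-Hochberg adjustment ran over all 15631 tested probes. A probe was tested if one condition or the other exceeded the detection limit on 2 or more arrays and 3 or more arrays had a value. Printed channel intensities had Aquantile normalisation after loess. The bound for DNAJB2 set its coculture mean against, per control array, the higher of its own signal and the lowest detected signal. The fit was tested on simulated data with independent noise and log2 changes of 2 up or down. Those changes are larger than any fitted chaperone ratio, so recovery of ratios of the size reported here was not tested. All 72 symbols were current in RefSeq. Precision is limited by there being 4 arrays.

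The members and lists were chosen with earlier results of these data known. Named genes were fixed members by role, the 3 highest and 3 lowest per compartment, members at unadjusted p under 0.05, and from each partner list the 2 of smallest unadjusted p. CDC37, FKBP4, CALR, ERP44, ERP29, TXNDC5, ATF4, XBP1, DNAJB4, DNAJC2, DNAJC18, DNAJC1 and HSPB3 were named beside these after their values were seen. Alternatives changed the background correction, pixel statistic, normalisation, filter, prior, dye term, value table, probe choice and replicates.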

Additional observations from a re-analysis of the deposited data

Results flagged for a closer look

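Among the 49 probes with named ratios, 3 had 1 array that stood far from the other 3 relative to their whole range. For groups of this size, chance alone gives about 1 such case in 20. HSPA2 stood at -0.87 on replicate 2, against -0.12 to -0.06 on the other arrays. DNAJC30, a mitochondrial J-domain protein, stood at -0.211 on replicate 2, against 0.23 to 0.28 on the other arrays, and was above the detection limit on 2 arrays of either condition. SDF2L1 stood at -1.48 on replicate 2, against -0.66 to -0.49 on the others. All 3 were lowest on replicate 2, in which coculture carried Cy5.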

How the results depend on the processing

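The number of chaperone probes and of all probes with an adjusted p under 0.05 was 0 under every alternative run. Over 695 alternative values of the 49 named probes, 39 had the other sign and 0 passed the threshold, the lowest adjusted p being 0.198. All probes at an unadjusted p under 0.05 numbered 1226, but 1895 with separate channels, 2643 without the filter on dim probes, 641 with probes detected in all 8 channels, 813 without the dye term, and 609 to 1503 with 1 replicate left out, 609 being without replicate 2. For chaperone probes the 9 became 4 to 7 with 1 replicate left out, with 4 beside the 609 of all probes without replicate 2. With probes detected in all 8 channels there were 6 of 62, beside 641 of 7179 over all probes. There were 13 without background correction, beside 1274 of all probes, and 11 with plain subtraction, beside 1228. The authors' table also gave 11. The ER median ran from -0.209 to -0.0449. The -0.209 came with median centring, where the median of all genes was -0.0766. ER genes below 0 numbered 13 of 17 without the filter and 10 of 12 with probes detected in all 8 channels. Under the other settings they numbered 10 to 13 of 14. Genes with a median-centred ratio below 0 numbered 19 of 27 in the cytosol, where the median of all genes was -0.0766.

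The sign changed for 15 genes, whose fitted ratios lay between -0.156 and 0.105 except that of CCT3 at -0.29, and the cause was not tested. With mean pixel intensities the values were 0.0265 for HSPA4, 0.0267 for HSP90AA1, -0.0141 for DNAJA1, 0.0546 for HSPD1, 0.0214 for DNAJC15 and 0.0343 for DNAJC11. With median centring they were -0.0316 for HSPH1, -0.0762 for DNAJA1, -0.0546 for HSPA9, -0.0487 for CCT4 and -0.00318 for CCT7. In the authors' table they were -0.0236 for DNAJA1, -0.0967 for HSPA9 and -0.0741 for CCT4. As a mean over probes they were 0.164 for DNAJC15, 0.0517 for CCT3 and -0.0177 for CCT7. With 1 replicate left out, the ranges were -0.112 to 0.0892 for HSPA4, -0.0858 to 0.0497 for HSP90AA1, -0.158 to 0.159 for DNAJA1 and -0.0878 to 0.0381 for HSPD1. They were -0.159 to 0.0878 for DNAJC15, -0.273 to 0.0676 for DNAJC11, -0.0588 to 0.158 for HSPH1 and -0.0495 to 0.0959 for HSPA9. They were -0.0319 to 0.0866 for CCT4, -0.0272 to 0.162 for CCT7, -0.212 to 0.0406 for DNAJB1 and -0.0791 to 0.0693 for DNAJB11. For DNAJC10 and DNAJB12 they were -0.348 to 0.0349 and -0.0425 to 0.252. The low signal over the negative controls and the 4 arrays limit what can be told for dim genes.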
